A study of Arabidopsis thaliana with 15 samples.

Results

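Roots of Arabidopsis thaliana seedlings fixed on board after 10 parabolas were compared with roots fixed in level flight before the first parabola. All 3 arrays labelled parabola 10 and all 4 arrays labelled level flight were used, which are 7 of the 15 arrays of the series. Each gene was taken from a row of the deposited table that is annotated to that gene alone. Where several such rows existed, the one that was brightest on average over the 15 arrays stood for the gene. This gave 16550 genes of 38408 rows.

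The seedlings were 10 days old, of the Wassilewskija (WS) background, and every group carried pCaMV35S:14-3-3κ:GFP, a fusion of a 14-3-3 regulatory protein with a green fluorescent protein. The promoter, from a plant virus, is active in most plant tissues. No wild type and no ground control is among the arrays used here. Whole roots were cut from seedlings that had been flooded with RNAlater in a Kennedy fixation tube aboard a C-9 aircraft, and grouped into pools, 1 array per pool. Since a single tube supplied all pools of a condition, p-values reflect only how pools of that tube differ. The number of parabolas, the tube and the time on board cannot be told apart. Arrays fixed after parabola 1 (n = 4) and parabola 3 (n = 4) entered the same fit and served as points between level flight and parabola 10. The question set by the design was which genes differ between parabolic and level flight. The annotation supplied with the table gave no symbol to 14745 of the genes, which are named by their locus, and the family of such a locus is given as background knowledge.

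A parabola takes the plants through raised gravity, a phase of reduced gravity and raised gravity again. Roots sense the direction of gravity in the root cap, where starch-filled plastids settle and auxin transport is redirected. Shaking and touch are known to call up calcium sensors, zinc finger, WRKY and ERF transcription factors, reactive oxygen chemistry and cell wall enzymes within minutes.

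After 10 parabolas 2423 of 16550 genes (14.6%) differed from level flight, 1247 (7.53%) of them higher and 1176 (7.11%) lower (limma on log2 values, Benjamini-Hochberg adjusted p under 0.05, two-sided). Genes are called rose or fell below only where they passed this test. The falls were the larger changes: 330 genes (1.99%) fell at least 2-fold and 155 (0.937%) rose at least 2-fold. At 4-fold or more there were 51 falls and 8 rises, and at 8-fold or more 4 falls and 1 rise. The median log2 fold change was 0.57 among genes that rose and −0.69 among genes that fell, beside 0.04 over all tested genes. No array of one group overlapped the other in 2223 of the 2423 genes called (91.7%), against 24.2% of all tested genes. Pairs of arrays correlated at 0.989 to 0.991 within parabola 10 and at 0.992 to 0.994 within level flight, and at 0.974 to 0.982 between these groups. The smallest change called was 0.28 on the log2 scale, with a median SE of 0.13. Precision is limited by how few arrays there are. In whole roots, fewer cells of a type and less RNA per cell cannot be told apart.

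**Figure D1:**
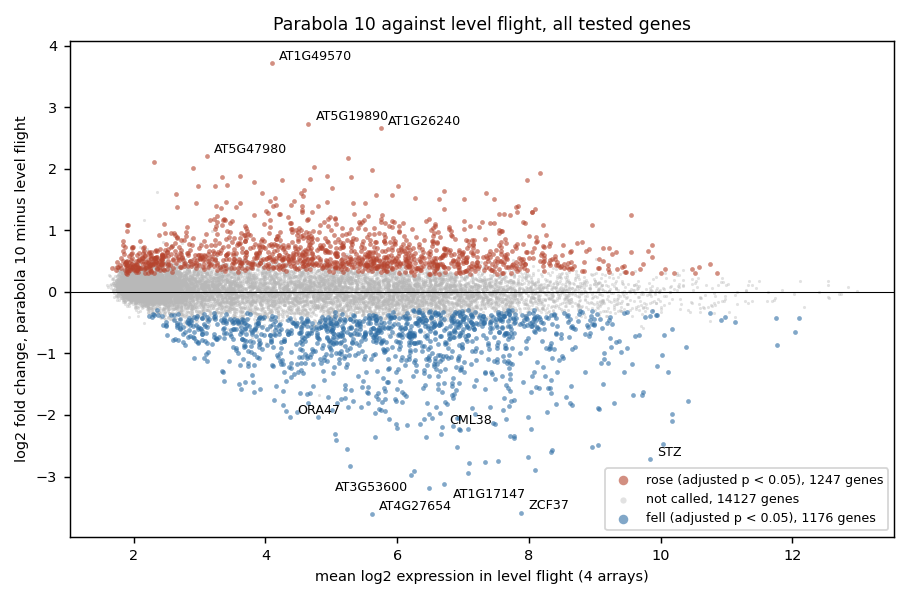
Log2 fold change of parabola 10 minus level flight (vertical axis) against the mean log2 expression in level flight (horizontal axis), 1 point per tested gene. The 1247 genes that rose are in red, the 1176 that fell in blue and the others in grey, and the falls reach far from 0 in more genes than the rises do.

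The 20 largest rises and 20 largest falls were taken only from called genes whose groups did not overlap. The largest rise was in AT1G49570, a class III peroxidase. Enzymes of this family are secreted to the cell wall, where they make or use hydrogen peroxide. Its log2 values were 8.04, 7.55 and 7.84 on the parabola 10 arrays, against 4.09, 4.20, 4.13 and 3.95 on the level flight arrays. The 2 groups lay more than 3 log2 units apart with no overlap, and the rise was 13.1-fold (3.72 ± 0.17 SE on the log2 scale, n = 3 and 4, limma adjusted p = 6.82e-10). Another class III peroxidase gene, AT5G19890, had 7.58, 7.35 and 7.21 after parabola 10, against 4.86, 4.62, 4.33 and 4.80 in level flight. Its rise was 6.64-fold (2.73 ± 0.18 SE, limma adjusted p = 2.03e-08), also without overlap.

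AT1G26240 encodes an extensin-like protein, one of the structural proteins of the plant cell wall. It had 8.61, 8.71 and 7.91 after parabola 10, against 5.15, 5.78, 5.93 and 6.15 in level flight. Replicate 3 was the lowest parabola 10 array and still lay above every level flight array (2.66 ± 0.32 SE, limma adjusted p = 1.41e-05). AT5G47980 belongs to the thalianol gene cluster, neighbouring genes for a root triterpene pathway. It had 5.45, 5.28 and 5.21 after parabola 10, against 3.00, 3.15, 2.96 and 3.32 in level flight (2.20 ± 0.20 SE, limma adjusted p = 9.17e-07). The only other measured gene of this and the marneral cluster, AT5G47950, did not pass (0.36), though it was called without level flight replicate 4 (0.45).

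A pair of loci of the basic helix-loop-helix (bHLH) transcription factor family were among the largest rises. AT2G43140 had 7.10, 6.73 and 6.50 after parabola 10, against 4.51, 4.67, 4.95 and 4.83 in level flight (2.04 ± 0.17 SE). AT4G20970 had 5.32, 4.47 and 3.46 after parabola 10, against 2.35, 2.47, 2.22 and 2.21 in level flight (2.11 ± 0.27 SE). In AT4G20970 the parabola 10 arrays differed among themselves by nearly as much as the groups did, and all 3 lay above level flight. Rises without a symbol or a family named here were AT5G48430 (2.17 ± 0.31 SE), AT3G62460 (2.01 ± 0.20 SE), AT5G10970 (1.98 ± 0.12 SE) and AT3G51540 (1.93 ± 0.15 SE). AT3G22142 rose 1.82 ± 0.44 SE but was not called without parabola 10 replicate 1, its highest array at 6.89 (1.40, adjusted p = 0.0683). The other rises among the 20 largest were AT5G04310, AT2G05642, AT4G39675, AT5G40590, AT3G45840, AT5G26290, AT1G44130, AT5G66970 and AT1G45015, with log2 fold changes from 1.73 to 1.89.

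Among the falls, the deposited values of AT4G27654 and ZCF37 were furthest apart between the groups. AT4G27654 had 2.25, 1.39 and 2.36 after parabola 10, against 5.44, 5.60, 5.74 and 5.66 in level flight. Parabola 10 replicate 2 was the lowest, and the groups did not overlap (−3.61 ± 0.23 SE, limma adjusted p = 1.57e-08). The parabola 10 values lay below the median of the 7083 rows without a gene name at the start of the table, which was 2.39 to 2.48 on these arrays. With no detection calls at hand, the fold of this fall and its order against ZCF37 are uncertain. ZCF37 had 4.58, 4.14 and 4.15 after parabola 10, against 7.74, 7.87, 7.83 and 8.06 in level flight (12.0-fold lower, −3.59 ± 0.20 SE, limma adjusted p = 5.39e-09). AT3G53600, a C2H2 zinc finger gene, had 4.10, 3.16 and 2.65 after parabola 10, against 6.45, 6.01, 6.62 and 6.84 in level flight (9.06-fold lower, −3.18 ± 0.31 SE). The parabola 10 arrays of AT3G53600 spread over more than 1 log2 unit, all below level flight. AT1G17147 carries the VQ motif, a short stretch through which such proteins bind WRKY transcription factors. Its values were 3.39, 3.56 and 3.81 after parabola 10, against 6.77, 6.47, 6.65 and 6.94 in level flight (8.69-fold lower, −3.12 ± 0.17 SE). The parabola 10 means of ORA47, PUB19, BHLH92, CML23, SWEET3 and SWEET14 also lay below the median of the unnamed rows. So did the level flight mean of AT4G20970. That median was 2.42 after parabola 10 and 2.48 in level flight (means over arrays). Little above it lay the parabola 10 means of AT1G78410 (2.44) and GRX480 (2.68), and those of XTH19 and SWEET13 were near it. The sizes of all these changes are uncertain too.

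STZ, also called ZAT10, is a zinc finger repressor induced by many stresses. It had 7.37, 7.28 and 6.68 after parabola 10, against 9.80, 9.79, 10.00 and 9.75 in level flight. The fall of 2.72 ± 0.18 SE on the log2 scale was 6.60-fold (limma adjusted p = 2.39e-08), and no array overlapped. AT5G25930 (−2.79 ± 0.18 SE), AT1G71520 of the AP2/ERF family (−2.76 ± 0.26 SE), AT3G25790 (−2.74 ± 0.21 SE) and AT1G73480 (−2.49 ± 0.24 SE) fell as well. Other falls among the 20 largest were AT4G27657, AT1G05575, AT2G36690, AT5G62210, AT1G78410, AT4G04745, AT4G29780, AT1G17145, GRX480, PUB23 and AT5G57010, with log2 fold changes from −2.98 to −2.52.

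**Figure D2:**
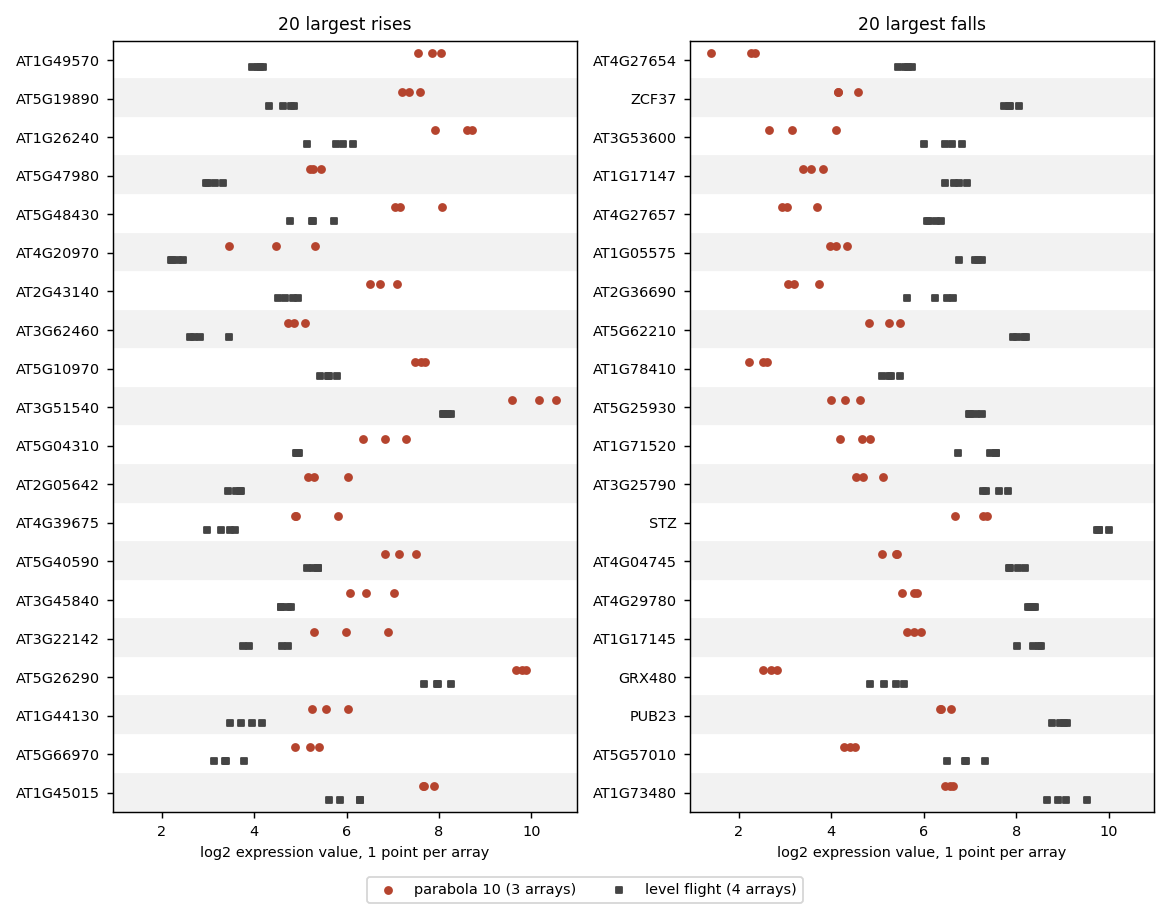
Log2 expression on each array for the 20 largest rises (left) and the 20 largest falls (right), with the 3 parabola 10 arrays as red circles above the 4 level flight arrays as dark squares. The genes were chosen from called genes whose groups do not overlap, and AT4G20970, AT3G53600 and AT3G22142 have widely spread parabola 10 arrays.

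Several of the largest changes went beyond what was measured after fewer parabolas, tested on the same fit with the same parabola 10 arrays. Against parabola 3, 98 genes (0.592%) were called higher after parabola 10 and 95 (0.574%) lower. Against parabola 1 these were 287 (1.73%) and 302 (1.82%). ZCF37 averaged 7.88 ± 0.13 in level flight (SD, n = 4), 5.87 ± 0.36 once 1 parabola had been flown (n = 4), 5.66 ± 0.38 after 3 (n = 4) and 4.29 ± 0.25 after 10 (n = 3). It was lower after parabola 10 than after parabola 3 (−1.37 ± 0.20 SE, limma adjusted p = 0.00168) and than after parabola 1 (−1.58 ± 0.20 SE, limma adjusted p = 0.000354). AT1G71520 (−1.45 ± 0.26 SE against parabola 3), AT5G25930 (−1.13 ± 0.18 SE), AT1G17147 (−0.95 ± 0.17 SE) and PUB23 (−0.74 ± 0.14 SE) were also called lower after parabola 10 than after either earlier parabola. AT5G10970 was the one gene among the 20 largest rises called higher than in both, by 0.53 ± 0.12 SE against parabola 3 and by 0.59 ± 0.12 SE against parabola 1.

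In other genes no further difference was called after parabola 3. CML38, a calmodulin-like calcium sensor, averaged 6.69 ± 0.14 in level flight, 4.56 ± 0.23 once 1 parabola had been flown, 4.54 ± 0.52 after 3 and 4.48 ± 0.27 after 10 (SD, n = 4, 4, 4 and 3). Parabola 10 differed from parabola 3 in CML38 by −0.05 ± 0.21 SE. AT4G29780 differed from parabola 3 by −0.01 and AT3G62460 by −0.04. A gap to parabola 1 but not to parabola 3 was called in AT1G49570 (1.12 ± 0.17 SE against parabola 1, 0.58 ± 0.17 SE against parabola 3, limma adjusted p = 0.00157 and 0.121). The same pair of calls was found in AT5G19890 and AT2G43140, where the difference from parabola 1 was 1.27 ± 0.18 SE and 1.36 ± 0.17 SE. AT5G47980 had the opposite pair of calls. It was 1.31 ± 0.20 SE higher than after parabola 3 (limma adjusted p = 0.00332), and its 0.43 ± 0.20 SE over parabola 1 did not pass. AT1G45015 (1.17 ± 0.19 SE over parabola 3) and AT5G26290 (0.68 ± 0.15 SE) had the same pair of calls as AT5G47980.

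**Figure D3:**
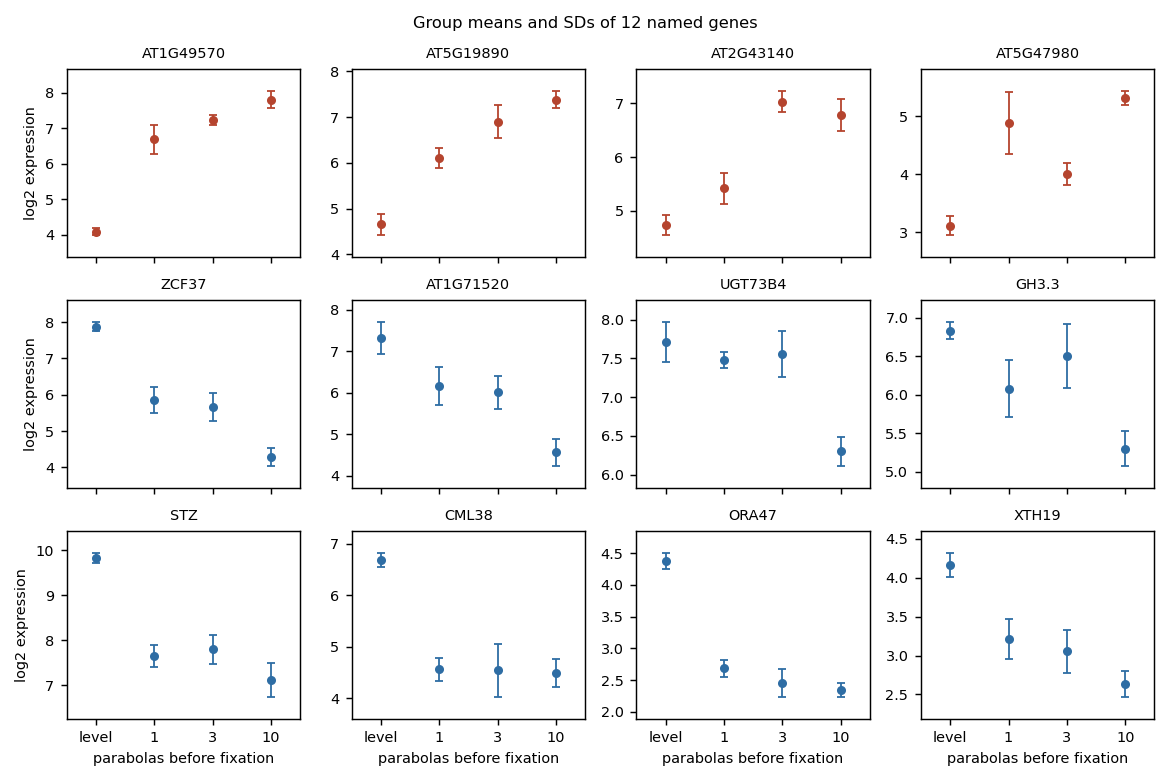
Mean log2 expression with SD (bars) of 12 genes in level flight and after 1, 3 and 10 parabolas, with 4, 4, 4 and 3 arrays. Genes that rose after parabola 10 are red and genes that fell are blue, and UGT73B4 stands low after parabola 10 alone (6.30, with 7.48 to 7.71 in the other groups).

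Among calcium sensors, 7 of the 22 listed calmodulin and calmodulin-like genes were measured, 4 fell and 1 rose, with a median log2 fold change of −0.51 (71.4% called, against 14.6% of all tested genes). CML38 had 4.69, 4.59 and 4.18 after parabola 10, against 6.72, 6.58, 6.57 and 6.88 in level flight (−2.20 ± 0.21 SE, limma adjusted p = 1.37e-06). Its chromosomal neighbour AT1G76640, or CML39, had 3.25, 3.29 and 3.37 after parabola 10, against 6.20, 5.41, 5.24 and 5.76 in level flight (−2.35 ± 0.23 SE). Both genes were well separated between the groups, and level flight replicate 1 was the highest array for CML39. CML37 (−0.69 ± 0.17 SE) and CML23 (−0.51 ± 0.14 SE) fell by less, and CML42 rose (0.55 ± 0.17 SE) with overlapping arrays. CML41 (0.20) and CML43 (−0.06) did not pass. The count of 5 called was 3 without parabola 10 replicate 1 or 2, when CML23 and CML42 were no longer called, and the CML42 call was also lost without level flight replicate 1, 2 or 3. Of calcium-dependent kinases and channels 10 of 148 listed genes were measured and 1 was called (10%). This was GLR3.5, a glutamate receptor-like channel, which rose (0.96 ± 0.24 SE), and its call was lost without parabola 10 replicate 1 (0.76, adjusted p = 0.075).

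Of 5 measured AP2/ERF genes with a symbol (of 75 listed), 3 fell, with a median of −0.75 (60% called, against 14.6% of all tested genes). AT1G71520, described above, has no symbol and is not among these 5. ORA47, an activator of jasmonate synthesis genes, had 2.25, 2.46 and 2.32 after parabola 10, against 4.57, 4.31, 4.27 and 4.37 in level flight (−2.04 ± 0.12 SE, limma adjusted p = 1.26e-08). The parabola 10 values of ORA47 lay far below level flight, with a mean below the median of the unnamed rows, so the size of the fall is uncertain. ABR1, a repressor of abscisic acid responses, fell (−0.98 ± 0.21 SE), as did DREB2C (−0.75 ± 0.21 SE), a heat-linked factor whose call was lost without level flight replicate 4 or parabola 10 replicate 2 or 3. TINY2 (0.09) and tny (0.25) did not pass. Of 8 measured C2H2 genes of the ZAT and AZF group (of 15), 3 fell and 1 rose, with a median of −0.19 (50% called). Beside STZ and AT3G53600, AT3G46080 fell (−0.95 ± 0.25 SE), a call lost without parabola 10 replicate 1 or 3, and AT2G28200 rose (0.82 ± 0.15 SE).

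Of 7 measured WRKY genes (of 72), 2 fell and 5 did not pass, with a median of −0.17 (28.6% called, against 14.6% of all tested genes). WRKY22, which acts in immune signalling, had 4.43, 4.43 and 4.29 after parabola 10, against 5.93, 5.68, 5.84 and 5.66 in level flight (−1.39 ± 0.18 SE). WRKY6, known from senescence and phosphate responses, had 8.37, 8.20 and 7.88 after parabola 10, against 9.36, 9.01, 8.97 and 9.23 in level flight (−0.99 ± 0.14 SE). Neither gene overlapped between the groups. WRKY29 (0.52) and WRKY41 (−0.45) had the next largest values and did not pass, but WRKY29 was called without parabola 10 replicate 3 (0.79) and WRKY41 without level flight replicate 1 (−0.61). WRKY41 was called under repeated quantile normalization too (−0.51, limma adjusted p = 0.0386).

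The VQ genes, whose proteins partner WRKY factors, were measured for 21 of 34 loci. Of these 8 fell and 3 rose, 52.4% called beside 14.6% of all tested genes, with a median of −0.01. AT1G78410 had 2.21, 2.60 and 2.52 after parabola 10, against 5.09, 5.24, 5.28 and 5.49 in level flight (−2.83 ± 0.19 SE). With AT1G17147 it stood more than 1 log2 unit below the other members. AT3G56880 (−1.67 ± 0.13 SE) and AT4G20000 (−1.31 ± 0.14 SE) fell by less. The 3 that rose were AT5G08480 (0.76 ± 0.15 SE), AT2G42140 (0.63 ± 0.14 SE) and IKU1 (0.54 ± 0.12 SE), a regulator of seed size, named after their values had been seen.

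Of 10 measured bHLH genes on the list (of 35), 2 rose and 2 fell (40% called, against 14.6% of all tested genes). The list does not hold AT2G43140 and AT4G20970, described above, so these counts are not those of the whole family. BHLH92, a stress-induced member, fell to 1.94, 2.19 and 2.13 after parabola 10, against 2.86, 3.09, 3.15 and 3.29 in level flight (−1.01 ± 0.11 SE). AT1G72210 also fell (−0.50 ± 0.12 SE). The iron regulators bHLH121 (0.49 ± 0.10 SE) and ILR3 (0.39 ± 0.10 SE) rose. Without parabola 10 replicate 1 the count was 2, since AT1G72210 (−0.34) and ILR3 (0.28) were no longer called. Of 67 measured MADS-box genes (of 99), 5 rose and 5 fell, and the 14.9% called is near the 14.6% of all tested genes. Both group means lay below the median of the unnamed rows in 44 of the 67. AGL46 had 5.59, 5.32 and 5.07 after parabola 10, against 4.35, 3.87, 4.11 and 3.71 in level flight (1.32 ± 0.17 SE). AGL19, a promoter of flowering, fell (−1.22 ± 0.24 SE). The MADS-box count of 10 was 4 without parabola 10 replicate 2, and 6 without parabola 10 replicate 3 or level flight replicate 1 or 4.

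CC-type glutaredoxins are small redox proteins that bind TGA transcription factors. Of 9 listed glutaredoxins, not all of this type, 6 were measured. Of these 2 fell and 1 rose (50% called, against 14.6% of all tested genes). GRX480 had 2.82, 2.70 and 2.52 after parabola 10, against 5.13, 4.83, 5.57 and 5.41 in level flight (5.87-fold lower, −2.55 ± 0.19 SE). ROXY2, known from anther development, moved the other way, with 4.39, 4.57 and 4.22 after parabola 10, against 2.97, 3.01, 2.83 and 2.94 in level flight (1.45 ± 0.22 SE). Neither gene overlapped between the groups. GrxC5, a chloroplast glutaredoxin of another class, fell (−0.90 ± 0.14 SE), and GRXC1 (−0.33), ROXY1 (−0.05) and GRXC2 (0.01) did not pass.

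Of 14 measured PUB and ATL ubiquitin ligases (of 37), 4 fell and 2 rose, with a median of 0.05 (42.9% called, against 14.6% of all tested genes). All 4 falls were plant U-box genes. PUB22, PUB23 and PUB24 are closely related ligases that dampen immune signalling. PUB23 had 6.37, 6.60 and 6.35 after parabola 10, against 8.95, 8.78, 9.10 and 9.03 in level flight (−2.53 ± 0.14 SE). PUB24 had 6.73, 6.59 and 6.44 after parabola 10, against 8.36, 7.93, 8.60 and 8.75 in level flight (−1.82 ± 0.18 SE). PUB22 (−1.33 ± 0.21 SE) and PUB19 (−1.12 ± 0.14 SE) followed, all without overlap. The rises were the RING ligases ATL5 (1.06 ± 0.20 SE) and ATL8 (0.80 ± 0.19 SE), named after their values had been seen. PUB25 (−0.01) and PUB26 (0.11), also regulators of immunity and named after their values had been seen, did not pass.

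Class III peroxidases were measured for 64 of 73 loci, of which 16 rose, 9 fell and 39 did not pass. This is 39.1% called, beside 14.6% of all tested genes, and the median was 0.09. Of the 4 with the smallest p-values AT5G15180 fell, with 6.18, 6.23 and 6.03 after parabola 10, against 7.65, 7.55, 7.32 and 8.11 in level flight (−1.51 ± 0.17 SE). AT4G37530 had 9.49, 8.95 and 8.93 after parabola 10, against 7.71, 7.73, 7.74 and 8.09 in level flight (1.31 ± 0.15 SE). Beside AT1G49570 and AT5G19890, the family thus held genes that moved by more than 2-fold in both directions. Outside the 4 chosen by p-value, PRXCA, a peroxidase of the oxidative burst, fell (−1.18 ± 0.21 SE) and AT3G03670 rose (1.72 ± 0.28 SE), named after their values had been seen. The largest fall in the family, −1.87, was in a member not named here.

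Among other cell wall genes, 23 of 26 pectate lyase-like loci were measured, of which 6 rose and 1 fell, with a median of 0.15 (30.4% called, against 14.6% of all tested genes). Pectate lyases cut the pectin backbone. AT5G04310 had 7.30, 6.84 and 6.35 after parabola 10, against 4.90, 4.94, 4.97 and 4.94 in level flight (1.89 ± 0.18 SE). The level flight arrays of AT5G04310 were nearly equal, and each parabola 10 array lay above them. AT4G24780 (0.97 ± 0.17 SE) and AT3G27400 (0.91 ± 0.20 SE) rose too. AT5G48900 was the member that fell, with 4.33, 4.65 and 4.88 after parabola 10, against 6.03, 5.83, 5.59 and 6.02 in level flight (−1.25 ± 0.22 SE).

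Xyloglucan endotransglucosylases and expansins loosen or rebuild the wall during growth. Of 33 measured (of 70), 5 rose and 3 fell, with a median of 0.02 (24.2% called, against 14.6% of all tested genes). XTH19 had 2.49, 2.60 and 2.81 after parabola 10, against 4.39, 4.03, 4.07 and 4.18 in level flight (−1.53 ± 0.16 SE). EXPB1 fell (−1.22 ± 0.22 SE), as did XTH21 (−1.17 ± 0.24 SE), named after its value had been seen. The 5 that rose were all expansins or expansin-like: EXPA7 (0.81 ± 0.15 SE) and EXLB1 (0.79 ± 0.14 SE), and, named after their values had been seen, EXPB2 (0.87 ± 0.20 SE), EXPA4 (0.68 ± 0.16 SE) and EXPB3 (0.62 ± 0.13 SE). EXPA7, an expansin of root hair cells, had 6.52, 6.66 and 6.26 after parabola 10, against 5.57, 5.71, 5.52 and 5.89 in level flight. EXPA18, the other root hair expansin, did not pass (0.02 ± 0.16 SE).

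**Figure D4:**
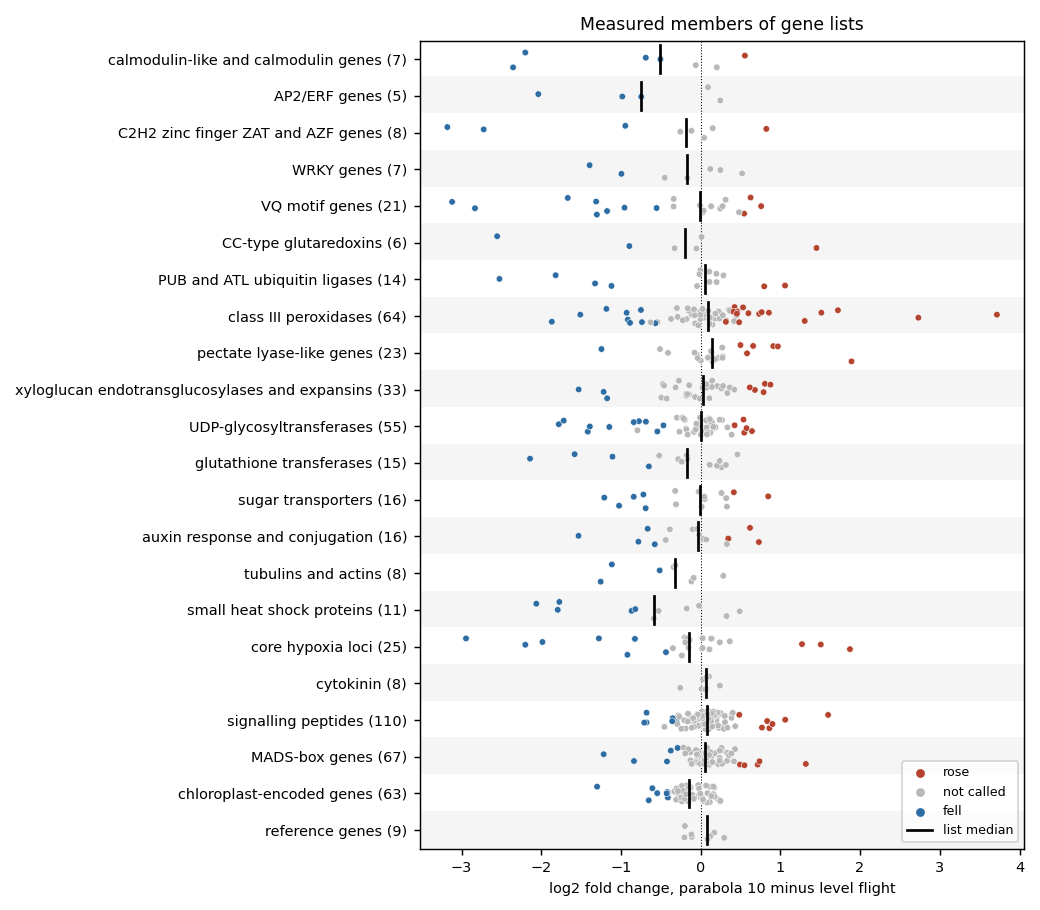
Log2 fold change of parabola 10 minus level flight for every measured member of 22 gene lists (horizontal axis), with members that rose in red, members that fell in blue and the others in grey, and the list median as a black bar. The number measured stands in parentheses, and the widest range is that of the 64 class III peroxidases, −1.87 to 3.72. Not all members of the list of CC-type glutaredoxins are of that type.

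Among enzymes that attach sugars or glutathione to small molecules the falls were larger than the rises, as they were over all genes called. Of 55 measured UDP-glycosyltransferases (of 64), 10 fell and 5 rose, with a median of 0.00 and rises of at most 0.64 (27.3% called, against 14.6% of all tested genes). UGT73B5 had 4.99, 4.78 and 5.04 after parabola 10, against 6.58, 6.28, 7.03 and 6.99 in level flight (−1.78 ± 0.17 SE, limma adjusted p = 1.25e-06). UGT73B4 had 6.37, 6.44 and 6.08 after parabola 10, against 7.88, 7.38, 7.65 and 7.95 in level flight (−1.42 ± 0.16 SE). In both genes every parabola 10 array lay below every level flight array. UGT73B5 and UGT73B4 were also lower after parabola 10 than after parabola 3, by −1.16 ± 0.17 SE and −1.26 ± 0.16 SE (limma adjusted p = 0.00178 and 0.000942), and than after parabola 1. UGT73B2 fell (−1.15 ± 0.14 SE), and so did UGT73B3 (−1.72 ± 0.21 SE) and UGT73B1 (−0.47 ± 0.11 SE), named after their values had been seen. These 5 are near copies that lie side by side in 2 clusters, and probes shared between copies would make their values alike, so the separate values are uncertain. UGT72E1, which glucosylates lignin precursors, fell as well (−1.39 ± 0.14 SE).

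Of 15 measured glutathione transferases (of 52), 4 fell and 0 rose, with a median of −0.18 (26.7% called, against 14.6% of all tested genes). GSTU25 had 3.60, 4.07 and 3.84 after parabola 10, against 5.75, 5.49, 6.17 and 6.51 in level flight (4.41-fold lower, −2.14 ± 0.26 SE). It was lower after parabola 10 than after parabola 3 (−1.30 ± 0.26 SE, limma adjusted p = 0.0193). ATGSTF13 (−1.58 ± 0.23 SE) and GSTF3 (−1.11 ± 0.21 SE) fell, and so did GSTU20 (−0.65 ± 0.19 SE), whose call was lost without parabola 10 replicate 1 or 2 or level flight replicate 1, 2 or 4 and whose change was −0.43 without parabola 10 replicate 2. Of 24 measured cytochromes P450 (of 240), 2 rose and 1 fell, with a median of 0.15, and the 12.5% called is near the 14.6% of all tested genes. Both group means lay below the median of the unnamed rows in 12 of the 24, against 4206 of all 16550 tested genes. CYP71B37 had 4.34, 3.94 and 3.83 after parabola 10, against 2.54, 2.68, 2.71 and 2.71 in level flight (1.38 ± 0.15 SE). It was also higher than after parabola 3 (0.85 ± 0.15 SE, limma adjusted p = 0.00669). CYP71B29 rose (1.16 ± 0.19 SE) and CYP71B34 fell (−1.28 ± 0.25 SE).

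For gravity responses, 4 of 65 listed genes of auxin transport and gravitropism were measured, and 1 was called (25%, against 14.6% of all tested genes). All 4 are of the LAZY family, whose proteins link gravity sensing to auxin flow. Both group means lay below the median of the unnamed rows in 2 of the 4. AT1G72490 fell, with 4.95, 4.28 and 4.14 after parabola 10, against 6.20, 5.93, 5.99 and 6.31 in level flight. The groups did not overlap, and the fall was 3.15-fold (−1.65 ± 0.18 SE, limma adjusted p = 4.25e-06). It was lower after parabola 10 than after parabola 3 (−0.87 ± 0.18 SE, limma adjusted p = 0.0218). AT1G19115 (−0.36), AT3G24750 (0.09) and AT1G17400 (−0.07) did not pass, but AT1G19115 was called without level flight replicate 4 or parabola 1 replicate 4. Under repeated quantile normalization AT1G19115 was called as well (−0.42, limma adjusted p = 0.0379).

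Of 16 measured auxin response and conjugation genes (of 151), 4 fell and 3 rose, with a median of −0.03 (43.8% called, against 14.6% of all tested genes). GH3.3, an enzyme that couples auxin to amino acids, had 5.49, 5.35 and 5.05 after parabola 10, against 6.80, 6.70, 6.97 and 6.86 in level flight (−1.53 ± 0.21 SE, limma adjusted p = 4.32e-05). It stood lower than after parabola 3 (−1.21 ± 0.21 SE, limma adjusted p = 0.00628). GH3.17 fell (−0.67 ± 0.16 SE), though not without parabola 10 replicate 1 (−0.51, adjusted p = 0.0607), and the auxin response repressor IAA18 fell too (−0.58 ± 0.14 SE). LBD29, which promotes lateral root formation, rose to 7.03, 6.76 and 6.89 after parabola 10, against 6.35, 5.94, 6.00 and 6.37 in level flight (0.73 ± 0.14 SE). LBD16, its relative in the same process, named after its value had been seen, did not pass (−0.04). The count of 7 called was 4 without parabola 10 replicate 2. Of 8 measured cytokinin genes (of 57), all response regulators, 0 were called, with values from −0.26 to 0.24. Both group means lay below the median of the unnamed rows in 5 of these 8, against 4206 of all 16550 tested genes.

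Transporters changed in both directions. Of 16 measured sugar transporters (of 38), nearly all of the SWEET family of sugar exporters, 5 fell and 2 rose (43.8% called, against 14.6% of all tested genes). SWEET13 had 2.65, 2.34 and 2.61 after parabola 10, against 3.70, 3.90, 3.91 and 3.47 in level flight (−1.21 ± 0.13 SE). SWEET3 (−0.84 ± 0.15 SE) and SWEET14 (−0.69 ± 0.13 SE) fell, while SWEET16, a carrier of the vacuole membrane, rose to 8.17, 7.99 and 7.80 after parabola 10, against 7.03, 7.01, 7.29 and 7.23 in level flight (0.85 ± 0.13 SE). The other vacuolar carrier SWEET17 also rose (0.42 ± 0.11 SE), named after its value had been seen. Of 18 measured nitrate, phosphate, sulfate and metal transporters (of 147), 3 fell and 2 rose (27.8% called). The glucosinolate importer GTR1 had 6.40, 6.53 and 6.58 after parabola 10, against 7.65, 7.52, 7.63 and 7.84 in level flight (−1.16 ± 0.12 SE), and its partner GTR2 fell by less (−0.49 ± 0.11 SE). AT1G72125 of the nitrate and peptide transporter family fell (−0.68 ± 0.11 SE), and the zinc transporter gene ZIP6 rose (0.92 ± 0.17 SE).

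Small heat shock proteins are chaperones that bind unfolding proteins. Of 11 measured (of 17), 5 fell and 0 rose, with a median of −0.59 (45.5% called, against 14.6% of all tested genes). AT2G29500 had 4.55, 3.82 and 4.48 after parabola 10, against 5.79, 6.08, 6.47 and 5.98 in level flight (−1.79 ± 0.22 SE, limma adjusted p = 1.55e-05). AT1G52560 had 4.51, 3.90 and 4.62 after parabola 10, against 6.04, 6.42, 6.99 and 6.19 in level flight (−2.06 ± 0.36 SE). Parabola 10 replicate 2 was the lowest array and level flight replicate 3 the highest in both. AT1G07400 fell (−1.77 ± 0.46 SE), although not without parabola 10 replicate 2 (−1.67, adjusted p = 0.0553), and AT5G51440 fell (−0.82 ± 0.16 SE). A separate list of heat shock genes, which includes the small heat shock gene ATHSP22.0 (−0.18), had 4 of 66 measured. The 4 had values from −1.08 to −0.04 and did not pass. Of these, Hsp70-2 (−0.43) was called without level flight replicate 3, parabola 1 replicate 3 or parabola 10 replicate 1, and AT5G48570 (−1.08) without parabola 3 replicate 3.

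Loci known to be induced by low oxygen in all cell types were measured for 25 of 53, of which 7 fell and 3 rose, with a median of −0.15 (40% called, against 14.6% of all tested genes). AT1G05575 had 4.35, 4.10 and 3.96 after parabola 10, against 7.18, 6.77, 7.11 and 7.26 in level flight (7.70-fold lower, −2.95 ± 0.27 SE). AT1G19530 moved the other way, with 8.46, 8.16 and 7.82 after parabola 10, against 6.46, 6.95, 6.51 and 6.65 in level flight (1.51 ± 0.15 SE). Members of this list thus differed in direction, and neither gene overlapped between the groups. CML38 and AT1G76600 (−1.99 ± 0.21 SE) were among the falls and AT4G39675 (1.87 ± 0.31 SE) among the rises. PDC2, a pyruvate decarboxylase of alcoholic fermentation, fell (−0.44 ± 0.12 SE), named after its value had been seen.

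Of 13 measured genes of abscisic acid, cold and dehydration (of 88), 3 fell and 0 rose, with a median of −0.13 (23.1% called, against 14.6% of all tested genes). KIN1 had 4.36, 5.24 and 5.00 after parabola 10, against 6.06, 6.37, 6.90 and 5.63 in level flight (−1.37 ± 0.26 SE), and its tandem neighbour KIN2 had 10.68, 10.66 and 10.59 after parabola 10, against 11.13, 11.22, 11.27 and 10.90 in level flight (−0.49 ± 0.11 SE). Both are induced by cold and drought, and as near copies they may share probes, so their separate values are uncertain. AT2G46140 also fell (−0.40 ± 0.12 SE), and this call was lost without parabola 10 replicate 1 or 3 or level flight replicate 1, 3 or 4. CP1 (−0.45) did not pass, but was called under median centring (−0.46) and under repeated quantile normalization (−0.50). It was called too without level flight replicate 2 or 3, parabola 1 replicate 2 or parabola 10 replicate 3. COR15A (−0.48), COR47 (−0.13) and LTI30 (0.07), named after their values had been seen, did not pass. Only 2 jasmonate genes (of 38) were measured, and neither passed, though MYC3 (0.30) was called under repeated quantile normalization (0.34, limma adjusted p = 0.0474).

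Of 8 measured tubulins and actins (of 25), 3 fell and 0 rose, with a median of −0.33 (37.5% called, against 14.6% of all tested genes). The beta-tubulin gene TUB1 had 5.47, 5.51 and 5.37 after parabola 10, against 6.70, 6.53, 6.34 and 6.70 in level flight (−1.11 ± 0.12 SE). ACT11 had 5.63, 6.21 and 5.32 after parabola 10, against 6.87, 6.99, 6.86 and 7.17 in level flight (−1.26 ± 0.19 SE). TUB9 fell (−0.51 ± 0.12 SE), and TUB5 (−0.34), TUB7 (−0.32), TUA6 (−0.12), TUB6 (−0.09) and ACT12 (0.28) did not pass. ACT12 was called without parabola 10 replicate 1.

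Among signalling peptides 110 of 214 listed genes were measured, of which 7 rose and 6 fell with a median of 0.08. The 11.8% called is near the 14.6% of all tested genes. Both group means lay below the median of the unnamed rows in 67 of the 110, and in 4206 of all tested genes. The defensin-like gene LCR73 had 3.84, 3.65 and 4.14 after parabola 10, against 2.64, 2.86, 2.83 and 2.94 in level flight (1.06 ± 0.13 SE). LCR69 (0.77 ± 0.14 SE) and IDL4 (0.90 ± 0.22 SE), a relative of the abscission peptide IDA, rose, and RALFL18 fell (−0.68 ± 0.15 SE). The count of 13 was 5 to 8 without parabola 10 replicate 1, 2 or 3 or level flight replicate 1, 3 or 4.

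Of 63 measured chloroplast-encoded genes (of 129), 7 fell and 0 rose, with a median of −0.15. The 11.1% called were all falls, while over all tested genes 7.11% fell and 7.53% rose (14.6% called). Of the 63 values 45 lay below 0 and 18 above. psbM, a small photosystem II subunit, had 6.42, 6.60 and 7.30 after parabola 10, against 7.96, 7.89, 8.47 and 7.98 in level flight (−1.30 ± 0.25 SE, limma adjusted p = 0.00146). Parabola 10 replicate 3 was closest to level flight in psbM, rps18 (−0.61 ± 0.15 SE), psbI (−0.42 ± 0.10 SE) and rps16 (−0.65 ± 0.16 SE). The count of 7 was 14 without parabola 10 replicate 3, 3 without replicate 1, 2 without replicate 2, and 4 without level flight replicate 3. Without replicate 2 psbI (−0.34) and rps16 (−0.44) were not called, and without replicate 1 rps16 (−0.61) was not. Of 18 mitochondrion-encoded genes measured, 1 was called (5.56%, against 14.6% of all tested genes). This was nad9, which fell (−0.34 ± 0.10 SE), but not without parabola 10 replicate 1 or 2 or level flight replicate 1, 3 or 4. Without parabola 10 replicate 3 the mitochondrial count was 4.

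Markers of tissue gave few values, since 2 of 94 listed root cell markers were measured, the root hair genes EXPA7 and EXPA18. Both had values above 5.5 on every array of these groups. Of 48 listed nuclear photosynthesis genes, markers of green shoot tissue, 8 were measured, with array medians from 4.50 to 5.16 after parabola 10 and from 4.39 to 4.57 in level flight. PSAN, a photosystem I subunit, rose to 5.80, 5.44 and 5.53 after parabola 10, against 4.68, 4.63, 4.71 and 4.84 in level flight (0.88 ± 0.17 SE), and the other 7 did not pass. The 12.5% called is near the 14.6% of all tested genes. LHB1B2 (−0.36) and RCA (0.33) had the next largest values. The part of green tissue in other results was not tested. None of 9 measured reference genes (of 17) passed the limma test, and their values lay between −0.20 and 0.29. The groups did not overlap in 44.4% of these 9, against 24.2% of all tested genes. Genes of 14-3-3 proteins, and with them the transgene, are not analysed here.

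Genes that lie next to each other in the assembly TAIR10.1 formed 10354 pairs in which both genes were tested. Both rose in 87 pairs, both fell in 97, and 1 rose while the other fell in 79. Both fell at least 2-fold in 17 pairs and both rose at least 2-fold in 6. Over all tested genes 7.53% rose and 7.11% fell, with 0.937% and 1.99% at 2-fold or more. The number of pairs that unrelated genes would give was not computed, so the counts are not read as many or few. Both genes fell more than 4-fold in the pairs AT1G14640 and AT1G14642, AT1G17145 and AT1G17147, AT1G76640 and CML38, and AT5G07860 and AT5G07870, and in the run of AT4G27652, AT4G27654 and AT4G27657. Some neighbours are near copies, whose probes may be shared, and the counts were not corrected for this.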

How the data were processed

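Total RNA of root pools was measured on Affymetrix AraGene 1.0 ST arrays. The authors deposited 1 log2 expression value per probe set and array. Per the submitters' processing notes, the tools were R 4.0.0, limma, oligo and RMA and the build TAIR10, with no role stated for any. RMA corrects background, scales arrays to one another and summarises probes. Any filter by the authors is not given in the sources. No column (0) belonged to another series. Rows were named through the supplied platform annotation and, for 16411 genes, a reference table of TAIR10.1 matched by gene number. No coordinates are given, since that assembly is not the one named by the submitters.

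All 15 arrays of the 4 groups entered a linear model of group means, fitted by lmFit and eBayes of limma 3.58.1 (R 4.3.3). The contrasts were parabola 10 minus level flight, minus parabola 3 and minus parabola 1. Tests were two-sided, with Benjamini-Hochberg adjusted p-values over all 16550 genes and a threshold of 0.05. The fit was tested on simulated data. No filter on dim signals was used.

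The members and the 48 gene lists were chosen with earlier results of these data known, and list members were completed after the data were seen. Lists are described by counts and medians only, with no set test. Named genes were called, had groups that did not overlap and were among the 20 largest rises or falls, or were up to 4 members of a described list by smallest p-value, or any member of a list with at most 8 measured. Genes named beyond this rule were named after their values had been seen. For 6 lists no member was measured. The alternatives were other scalings, filters, fits and thresholds, the replicate number as a block, and omission of each array. Sequences of promoters and proteins were not used here.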

Additional observations from a re-analysis of the deposited data

Results flagged for a closer look

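In 9 of 203 named genes 1 level flight array stood apart from the other 3 by Dixon's test, which flags about 1 in 20 groups by chance. Groups of 3, such as parabola 10, were not tested. Among genes that fell, AT1G71520 had 6.75 in level flight replicate 2 (7.43 to 7.56 in the others) and RALFL18 had 5.76 in replicate 3 (5.24 to 5.28 in the others). Chloroplast genes psbM and psbI fell as well, with 8.47 (7.89 to 7.98 in the others) and 11.9 (11.7 in the others) in level flight replicate 3. Among genes that rose, AT4G37530 had 8.09 in level flight replicate 4 (7.71 to 7.74 in the others), and JAL33, a jacalin-related lectin gene, had 2.75 in replicate 4 (3.29 to 3.30 in the others). JAL33 changed by 0.44 ± 0.14 SE (limma adjusted p = 0.0482), and 0.30 without that array (limma adjusted p = 0.145). The JAL33 call was also lost without level flight replicate 1 or 2 or any 1 of the parabola 10 arrays. It was lost without parabola 1 replicate 1 or 4 or parabola 3 replicate 2, 3 or 4, and under median centring or repeated quantile normalization. Among genes that did not pass, the clock gene GI had 5.64 in level flight replicate 1 (5.14 to 5.19 in the others), the histone gene HTB1 had 6.26 in replicate 2 (5.98 to 6.02 in the others), and the antenna protein gene LHCB4.1 had 5.29 in replicate 2 (5.09 to 5.12 in the others).

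Outside the named genes, 2436 of 21686 rows with no gene or several genes (11.2%) differed between parabola 10 and level flight at the same threshold, 1022 of them higher and 1414 lower. Their p-values were adjusted over all 38408 rows, and they are not described further.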

How the results depend on the processing

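The number of genes called (2423 of 16550) was within 1.5 times of that value under every alternative other than the ones given next. With all rows of the table it was 4460, of 38408 rows. At an adjusted p under 0.01 it was 1356, and at least 2-fold it was 485. Omitting 1 array gave counts from 1723 to 2472, lowest without parabola 10 replicate 1 (1723) and replicate 2 (1786). The share of called genes that were lower was 48.5%, and 52.8% after centring by the reference genes. The array median of the 7083 unnamed rows at the start of the table as a covariate, added after the data were seen, gave 1917. With the replicate number as a block 2266 genes were called, of which 2126 were also called without it. Same-numbered parabola 10 and level flight arrays did not deviate together (correlations of −0.037, 0.002 and −0.076), so the numbers were not taken as pairs. Of 128 named genes that were called, 107 stayed called in every setting in which they were tested, other than the stricter thresholds, and 21 lost the call when 1 array was omitted. No called gene (0 of 128) changed sign in any of these settings. The planned description of promoter motifs and protein lengths was not run. Genes near the background on every array, whose RMA values lie at the low end of the scale, can show only small changes, and no detection calls were used.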
